A study of Homo sapiens with 18 samples.

Results

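The transcription factor SP1 was mapped by ChIP-seq in 4 libraries of ZR751 cells, and the regions described here are its strongest peaks far from promoters. They were chosen by SP1 signal and by distance. The 5000 peaks of highest signal in each library were merged wherever they shared 1 bp or more into 18289 regions, and the 13411 with a midpoint more than 5 kb from every protein-coding transcription start site (TSS) in hg19 were kept as distal regions. The other 4878 lay within 5 kb of a TSS and are called promoter regions. ZR751 is an established human breast cancer line that expresses estrogen receptor α (ERα). All libraries came from ZR751 cells, with no drug or hormone treatment named in the labels, that carried a short hairpin RNA delivered by lentivirus. The shMLL3 cells carried a hairpin against MLL3 (gene KMT2C), and the shLucif/control cells a hairpin against luciferase. There were 2 replicates per cell line for SP1, H3K4me1, ERα and RNA-seq, which the study calls biological replicates, and the labels do not say whether either cell line is a clone.

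SP1 is a zinc finger protein found in most cell types. It binds GC-rich DNA, above all the GC box, and is best known from CpG-rich promoters. CCAAT boxes, which are bound by the NF-Y complex, often stand beside GC boxes in promoters. MLL3 is a methyltransferase that places the monomethyl mark on lysine 4 of histone H3 (H3K4me1), the mark of enhancers, and ERα in breast cancer cells binds mostly at enhancers. The overlap of distal SP1 regions with H3K4me1 and ERα peaks therefore bears on whether SP1 sat at such elements, with and without the hairpin against MLL3.

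The sequences below are examples of windows with and without GC boxes, and they do not stand for their groups. Each is the 200 bp around the midpoint of a region, from hg19, on the plus strand. Capitals mark GC boxes (GGGCGG) and CCAAT boxes (CCAAT), read on either strand. The first pair of regions, in introns of GRK1 and NFIC, were among the top 5000 peaks of all 4 libraries. The next pair, in introns of SNED1 and GRIN1, were present in both shMLL3 libraries and in neither shLucif library. The region near CPM was present in both shLucif libraries and in neither shMLL3 library. The last, in LINC00910, was the strongest distal region present in shMLL3 replicate 2 alone, although a separate region of shLucif replicate 2 lay beside it in the same gene.
GRK1 intron, chr13:114428208-114428407: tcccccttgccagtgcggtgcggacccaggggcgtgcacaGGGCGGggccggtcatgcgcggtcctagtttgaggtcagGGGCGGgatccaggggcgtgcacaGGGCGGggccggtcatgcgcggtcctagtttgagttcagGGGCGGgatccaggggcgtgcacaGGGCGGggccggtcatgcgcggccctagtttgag
NFIC intron, chr19:3344259-3344458: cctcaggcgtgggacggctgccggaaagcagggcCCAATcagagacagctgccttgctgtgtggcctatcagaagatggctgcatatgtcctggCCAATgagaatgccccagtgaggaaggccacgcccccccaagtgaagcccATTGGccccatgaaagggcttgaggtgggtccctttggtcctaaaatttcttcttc
SNED1 intron, chr2:242003481-242003680: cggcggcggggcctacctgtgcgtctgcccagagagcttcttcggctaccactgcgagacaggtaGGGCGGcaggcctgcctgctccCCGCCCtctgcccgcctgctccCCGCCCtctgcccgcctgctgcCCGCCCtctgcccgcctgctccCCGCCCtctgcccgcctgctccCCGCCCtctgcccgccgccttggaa
GRIN1 intron, chr9:140044862-140045061: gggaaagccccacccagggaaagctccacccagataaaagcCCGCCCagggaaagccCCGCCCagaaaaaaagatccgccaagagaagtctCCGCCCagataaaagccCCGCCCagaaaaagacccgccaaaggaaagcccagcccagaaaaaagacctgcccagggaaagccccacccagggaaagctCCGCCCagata
CPM, chr12:69366938-69367137: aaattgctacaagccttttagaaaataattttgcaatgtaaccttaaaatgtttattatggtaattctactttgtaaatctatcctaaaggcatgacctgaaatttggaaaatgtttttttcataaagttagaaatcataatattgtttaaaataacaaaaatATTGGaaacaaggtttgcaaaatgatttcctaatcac
LINC00910, chr17:41465966-41466165: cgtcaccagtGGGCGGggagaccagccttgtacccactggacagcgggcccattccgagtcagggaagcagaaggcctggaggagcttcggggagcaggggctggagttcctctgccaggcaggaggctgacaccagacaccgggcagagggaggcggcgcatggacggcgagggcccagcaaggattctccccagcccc

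GC boxes recurred in the GRK1, SNED1 and GRIN1 windows, with 5, 6 and 5 matches, and overlapping matches were each counted. In these windows the matches lay largely within repeated stretches of like sequence, so they are not independent. The NFIC window held 3 CCAAT boxes and no GC box. The window near CPM was AT-rich, with a GC content of 24.5%, and held 1 CCAAT box and no GC box. Other regions of the same groups, named below, differed from those shown. The PLLP and SH3PXD2B windows, of the shMLL3 group, had no GC box. The DLG2 window, of the shLucif group, had a GC content of 50.5%.

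The 4 SP1 peak lists differed from each other in ways that touch every result on these regions. In shLucif replicates 1 and 2 and shMLL3 replicate 1, 86.8%, 86.5% and 86.1% of the top 5000 peaks were distal. In shMLL3 replicate 2, 13.2% were. The distal share of this library was thus far below the others, including the other library of its own cell line. The caller's lowest false discovery rate (FDR) was 0.029 in shLucif replicate 1 and 0.0622 in shLucif replicate 2, so that 0 peaks of either list reached an FDR of 0.01. It was 0.000299 in shMLL3 replicate 1 and 0.00052 in shMLL3 replicate 2, where 204178 and 12065 peaks reached an FDR of 0.01. From the first peak to the last of the top 5000 the signal fell 4.40-fold and 4.45-fold in the shLucif libraries, 6.45-fold in shMLL3 replicate 1 and 12.7-fold in shMLL3 replicate 2. Peak widths were fixed per library, at 360, 216, 280 and 500 bp. The read depth behind single peaks is unknown, and presence is a matter of rank within each list. Because shMLL3 replicate 2 stood apart from shMLL3 replicate 1 as well, its regions are also given separately.

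Of the 13411 distal regions, 4333 were present in shLucif replicate 1, 4323 in shLucif replicate 2, 4302 in shMLL3 replicate 1 and 602 in shMLL3 replicate 2. As many as 13293 (99.1%) were present in 1 library alone, namely 4268, 4275, 4231 and 519 regions in the same order. Only 118 (0.880%) recurred in 2 or more libraries, with 96 in 2, 13 in 3 and 9 in all 4. The promoter regions recurred more often, with 594 of 4878 (12.2%) in 2 or more libraries and 50 in all 4. The rule that chose the regions fixes these counts, and they are given as a description.

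**Figure D1:**
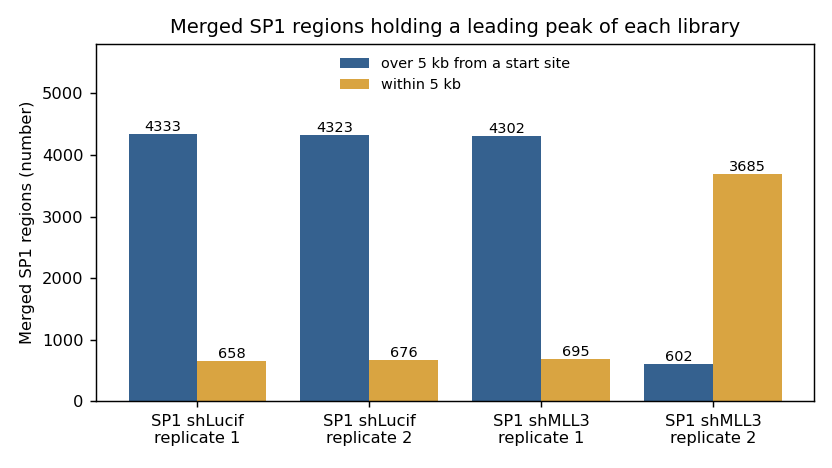
Number of merged SP1 regions (y axis) that hold a top 5000 peak of each SP1 library (x axis), with blue bars for distal regions and yellow bars for regions within 5 kb of a protein-coding TSS. The distal bars stand at 4333, 4323 and 4302 for the first 3 libraries, and shMLL3 replicate 2 has 602 distal and 3685 promoter regions.

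Replicates of a cell line shared few distal regions. The shLucif replicates had 27 in common, which was 0.623% of the regions of replicate 1 and 0.625% of those of replicate 2. The shMLL3 replicates shared 50, or 1.16% of replicate 1 and 8.31% of replicate 2. At promoters the corresponding numbers were 99 and 301. Between cell lines, shLucif replicate 1 shared 28 distal regions with shMLL3 replicate 1 and 38 with shMLL3 replicate 2, and shLucif replicate 2 shared 20 and 26. Both shMLL3 libraries thus shared most with each other. For shLucif replicate 2 the shared numbers were close, at 27 within its cell line and 26 with shMLL3 replicate 2. For shLucif replicate 1 the 27 within its cell line was the lowest. The whole lists, which run to 209985 or 300000 peaks, were searched as well. Of the regions of the first 3 libraries, 5.97% to 14.7% were listed at any rank in a given other library. For the 602 regions of shMLL3 replicate 2 the share was 25.9% to 33.9%. The lists themselves cover 1.90% to 4.62% of the genome.

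The rule did not use sequence, and the GC box differed widely between these groups of regions. A GC box lay in the 200 bp window of 0.422% of the regions present in shLucif replicate 1 alone (18 of 4268, 95% Wilson interval 0.267% to 0.666%). The share was 0.865% for shLucif replicate 2 alone (0.629% to 1.19%) and 0.544% for shMLL3 replicate 1 alone (0.363% to 0.814%). Each of these was below the share in the flanks 1000 bp to either side, which was 1.53%, 1.72% and 1.63%. In regions of shMLL3 replicate 2 alone the share was 32.4% (168 of 519, 28.5% to 36.5%), against 7.23% in their flanks. For promoter regions it was 52.5%, against 12.5% in flanks. The intervals cover counting error only.

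Recurrence went with the GC box as well. The share of windows with a GC box was 1.85% for regions in 1 library, 35.4% in 2, 53.8% in 3 and 55.6% in all 4 (5 of 9). Among the 118 recurrent regions, 83 were also present in shMLL3 replicate 2, and 46 of those (55.4%, 44.7% to 65.6%) had a GC box. Of the 35 that it did not hold, 0 had a GC box, which allows a share of up to 9.89% by the Wilson interval. Base composition moved with the GC box. The median GC content of the window was 58% in the 83 regions, 31% in the 35, 53.5% in regions of shMLL3 replicate 2 alone, and 34%, 35.5% and 32.5% in those of the other libraries alone. Promoter regions had a median of 62.5%. The part of base composition in the GC box counts was not tested.

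**Figure D2:**
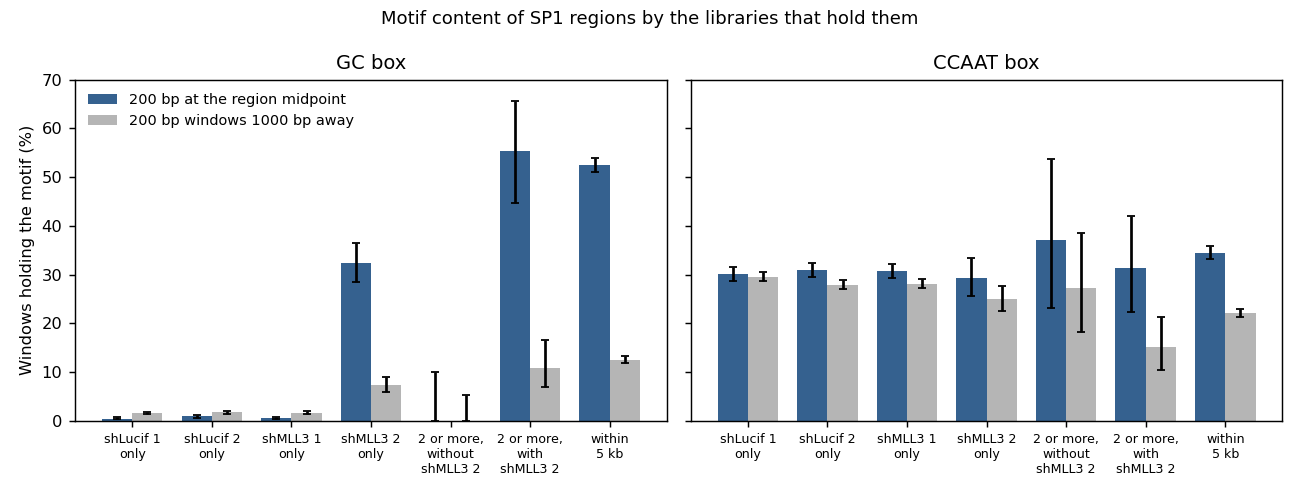
Percent of 200 bp windows with a GC box (left) or a CCAAT box (right) at the midpoint of SP1 regions (blue) and 1000 bp to either side (grey), for distal regions grouped by the libraries that hold them and for regions within 5 kb of a protein-coding TSS, with 95% Wilson intervals as error bars. GC boxes reach 32.4% in regions of shMLL3 replicate 2 alone and 55.4% in recurrent regions with it, against 0.865% or less in regions of the other libraries alone, while the blue CCAAT bars lie between 29.3% and 37.1%.

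Rank within a library showed the same order. In shMLL3 replicate 2, 6 of the 8 distal regions among the 100 strongest peaks had a GC box, as had 30.9% of those ranked 1001 to 5000. In shLucif replicate 1, 5 of 48 distal regions among the top 100 had one, and 0.620% of those ranked 1001 to 5000. For shLucif replicate 2 the values were 7 of 35 and 0.848%, and for shMLL3 replicate 1 they were 5 of 28 and 0.866%. In every library the share was higher among the 100 strongest peaks than among those ranked 1001 to 5000. These are not separate observations. The GC box regions in GRID2IP, GRK1 and SDR42E2 and near NFE2L3, described below, were among the top 100 of every library. At ranks 101 to 500 the shares were 1.29% and 1.26% in the shLucif replicates and 4.43% and 77.8% in the shMLL3 replicates.

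Other motifs were searched as exact letters on both strands. CCAAT was found in 30.5% of all distal windows and 28.3% of flanks, a short sequence that is common anywhere. In the 83 recurrent regions with shMLL3 replicate 2 its share was 31.3%, against 15.1% in flanks. The ETS motif CCGGAAG, bound by a family of factors active at promoters, was in 0.403% of all distal windows, 4.24% of those of shMLL3 replicate 2 alone and 11.5% of promoter regions, against 0.268%, 0.674% and 1.29% in their flanks. The CTCF core GGNGGCAG, part of the site of the insulator protein, was in 2.30% of all distal windows and in 10.2% of those of shMLL3 replicate 2 alone, where the flanks had 8.67%. AGATAA, a site of the GATA factors, was in 19.8% of all distal windows and 16.6% of flanks. Its share was 9.25% in windows of shMLL3 replicate 2 alone, whose median GC content was higher, a part that was not tested. AP-1 sites (TGAGTCA) were in 3.09% of distal windows and 3.15% of flanks. Forkhead sites (TGTTTAC) were in 3.91% and 3.49%. An estrogen response element in its full palindromic form was found in 1 of 13411 windows and 4 of 26822 flanking windows. Matches of different motifs may overlap, and absence of these letters from a window says nothing about the factor.

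By annotation of the midpoint, 40.1% of distal regions lay in an intron of a protein-coding gene and 2.51% in an exon. Another 39.8% were intergenic and 17.6% lay in a non-coding gene alone. The median distance to the closest protein-coding TSS was 85802 bp. It was 27717 bp for regions of shMLL3 replicate 2 alone and 90091, 94019 and 90307 bp for those of the other libraries alone. Among the 118 recurrent regions (21894 bp), the 83 that shMLL3 replicate 2 held had a median of 17870 bp, and the 35 that it did not hold had one of 80872 bp. Close to the limit set by the rule, 28 regions lay between 5.0 and 5.1 kb from a TSS, the closest at 5001 bp. Just outside it, 26 lay between 4.9 and 5.0 kb, the last at 4999 bp.

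A promoter of a non-coding gene counts as distal under this rule, and many recurrent regions were of that kind. Of all distal regions, 3.74% lay within 1 kb of the start of a non-coding gene or pseudogene. Of the 118 recurrent regions 30 (25.4%) did, all of them among the 83 that shMLL3 replicate 2 held, and of the regions of shMLL3 replicate 2 alone 146 (28.1%) did. The shares for the other libraries alone were 2.202%, 3.13% and 2.29%. Promoter regions lay as close to such a start in 21.6% of cases, and recurrent promoter regions in 25.4%. The trait was thus not particular to recurrent distal regions. The start of MALAT1, an abundant nuclear long non-coding RNA, lay 19 bp from the midpoint of chr11:65266240-65266739. That region ranked 3869 and 1220 in the shLucif replicates and 2399 in shMLL3 replicate 2. In shMLL3 replicate 1 it was listed only at rank 103904. Other such starts were those of the small nuclear RNA gene RNVU1-18, the vault RNA gene VTRNA1-2, MIR7-3HG and SNED1-AS1. With start sites of all annotated genes in place of protein-coding ones, 10991 regions remained distal and 63 of them recurred.

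The 9 regions present in all 4 libraries were led by a region in an intron of GRID2IP on chromosome 7. It ranked 2 and 2 in the shLucif replicates and 1 and 1 in the shMLL3 replicates. Its SP1 signal was 31.1, 27.4, 32.4 and 136 on the scale of each library, and it overlapped no H3K4me1 or ERα peak at any rank. The second lay in the non-coding gene KLRK1-AS1 on chromosome 12 and ranked 4, 3, 2 and 25. It overlapped H3K4me1 peaks of rank 7015 in shLucif replicate 2 and 3362 in shMLL3 replicate 2. The third was chr13:114427951-114428664 in an intron of GRK1, a kinase of photoreceptors, ranked 20, 38, 11 and 6. These 3 regions were among the 38 strongest SP1 peaks of every library.

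Next came chr16:22201887-22202553 in an exon of SDR42E2, 15379 bp from the TSS of EEF2K, the kinase of translation elongation factor 2, with ranks of 3, 1, 38 and 42 and with 4 GC boxes. The intergenic region chr7:25902106-25902805, 289362 bp from NFE2L3, ranked 8, 68, 14 and 11 and had 2 GC boxes. The other 4 ranked lower in at least 1 library. Near LRCOL1, chr12:133170428-133170930 ranked 135, 174, 520 and 220 and had 2 CCAAT boxes. The region chr2:25584761-25585462, 11 bp from the start of a long non-coding RNA gene and 19653 bp from the TSS of the DNA methyltransferase DNMT3A, ranked 1788, 161, 39 and 173. In NFIC, which encodes a nuclear factor I protein, chr19:3344101-3344617 ranked 1341, 139, 28 and 1903. The last, chr3:15419554-15420127 near SH3BP5, ranked 2454, 1597, 339 and 2642, with 1 GC box and 1 ETS motif. KLRK1-AS1 was the only one of the 9 that overlapped a top H3K4me1 peak in any library, and none of the 9 overlapped a top ERα peak.

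Present in both libraries of a cell line and in neither of the other were 14 regions for shLucif and 32 for shMLL3. All 32 include shMLL3 replicate 2, the library that stands apart, so the hairpin and the library cannot be told apart for them. The shMLL3 regions of lowest mean rank lay in SNED1 (chr2:242003315-242003847, ranks 1450 and 259), near SSH3 (chr11:67084514-67085475, ranks 1653 and 363), near PLLP (chr16:57334002-57334732, ranks 52 and 2153), in GRIN1 (chr9:140044712-140045211, ranks 112 and 2765) and in SH3PXD2B (chr5:171847376-171848076, ranks 651 and 2352). Of these, the SNED1, SSH3 and GRIN1 windows had GC boxes, the SH3PXD2B window had 2 CCAAT boxes, and the PLLP window had neither.

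The shLucif regions of lowest mean rank lay in DLG2 (chr11:85194924-85195283, ranks 864 and 5), in a non-coding gene on chromosome 13 (chr13:63623409-63623805, ranks 1043 and 86), near CPM (chr12:69366858-69367217, ranks 1625 and 1419), near BATF3 (chr1:212846462-212846821, ranks 854 and 3317) and near CDK20 (chr9:90597909-90598269, ranks 1034 and 3161). Their GC content was 50.5%, 25.5%, 24.5%, 32.5% and 32%. None had a GC box, and none overlapped a top H3K4me1 or ERα peak. Peaks were not filtered here against a list of regions prone to false signal, so its part in these regions was not tested.

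Among regions present in 1 library, some of the strongest lay together on chromosome 17. In shLucif replicate 2, peaks ranked 8, 10 and 14 lay in LINC00854 (chr17:41381650-41381865), between it and the next gene (chr17:41400813-41401028) and at the start of LINC00910 (chr17:41466359-41466574). The strongest region of shMLL3 replicate 2 alone, at rank 105, was chr17:41465816-41466315, also in LINC00910 and at a distance of 126 bp from its start. It lay beside the region ranked 14 in shLucif replicate 2 without overlapping it, and overlapped a peak of rank 24987 in that library. The start of LINC00910 thus held a top peak in both libraries, counted as separate regions. In shLucif replicate 1 the strongest was chr22:22418933-22419292 at rank 10. The strongest of shMLL3 replicate 1 alone was chr7:26486517-26486796 at rank 42, 82712 bp from SNX10. These regions were called present in 1 library because no overlapping peak reached the top 5000 elsewhere. They too were not filtered for regions prone to false signal.

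The regions were spread unevenly over the chromosomes. Chromosome 1 held 2300 of the 13411 (17.2%) with 7.88% of the known sequence, which is 10.2 regions per Mb. Chromosomes 12, 18 and 7 followed with 9.23, 7.70 and 6.76 per Mb, and chromosomes 6 and 21 had 2.03 and 1.94. On chromosome 1 the density was 2.16 per Mb before the largest gap in the assembly and 19.5 per Mb after it. The same side was denser in each of the other lists. The top H3K4me1 peaks had 9.40 to 11.2 per Mb before the gap and 51.8 to 67.0 after it, and the top ERα peaks 1.19 to 2.76 and 4.88 to 19.2. Differences between chromosomes were not tested.

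**Figure D3:**
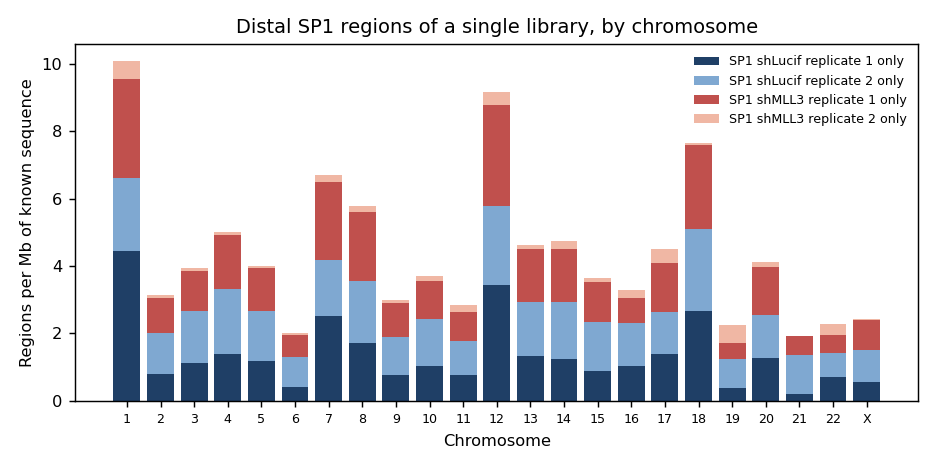
Distal SP1 regions present in a single library, per Mb of known sequence (y axis), for each chromosome (x axis), with stacked colours for the 4 libraries. Chromosomes 1 and 12 stand highest, as they do for all distal regions at 10.2 and 9.23 per Mb, and the 3 large libraries each contribute to these peaks.

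Few distal regions overlapped a top H3K4me1 peak, but these peaks covered only 0.869% to 1.23% of the genome in each library. The overlap that position alone would give was not tested. Overlap with the 50000 strongest H3K4me1 peaks was found for 613 regions (4.57%) in shLucif replicate 1, 572 (4.27%) in replicate 2, 424 (3.16%) in shMLL3 replicate 1 and 512 (3.82%) in replicate 2. Both shMLL3 libraries were below both shLucif libraries. The means were 4.42% ± 0.216 (SD, n = 2) in shLucif and 3.49% ± 0.464 (SD, n = 2) in shMLL3, a difference of -0.928 percentage points (two-sided exact permutation test, p = 0.3333, the smallest p that 2 libraries against 2 allow). The peaks compared covered 37.9, 35.7, 26.9 and 35.0 Mb, so the lowest overlap belonged to the list that covered least. In that list, of shMLL3 replicate 1, 28599 of the 50000 peaks reached an FDR of 0.01, against all 50000 in the others. Per Mb of list the overlaps were 16.2, 16.02, 15.8 and 14.6 regions. In total 1244 regions (9.28%) overlapped a top H3K4me1 peak in at least 1 library and 80 in all 4.

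Regions of shMLL3 replicate 2 overlapped H3K4me1 more often than those of the other SP1 libraries. Of its 519 sole regions, 18.1% and 17.3% overlapped a top peak of the shLucif libraries, and 9.63% and 12.9% one of the shMLL3 libraries. For regions of the other SP1 libraries alone the shares were 2.85% to 4.51% and 2.41% to 3.91%. This sets 1 SP1 library against the others and has no test. Region width moved with it, at a median of 500 bp for shMLL3 replicate 2 alone and 216 to 360 bp for the others, and a wider region meets a peak more readily, a part that was not tested. Over all 602 regions that shMLL3 replicate 2 held, the shares were 17.1% and 17.1% in shLucif against 9.30% and 12.3% in shMLL3, a difference of -6.31 percentage points with the same p of 0.3333 in the exact permutation test. In the 118 recurrent regions the shares were 9.32%, 12.7%, 6.78% and 7.63%. Promoter regions overlapped H3K4me1 in 5.64%, 5.47%, 2.34% and 3.46% of cases. Distal minus promoter was -0.274 percentage points, higher in 2 of 4 libraries (exact permutation test with sign flips, p = 0.625, where the smallest p that 4 libraries allow is 0.13), and its direction turned under 8 of 16 alternatives. Among the top 5000 peaks of SP1 shMLL3 replicate 2 alone, that difference was 10.8 percentage points (p = 0.13 in the same exact test, the smallest it allows).

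**Figure D4:**
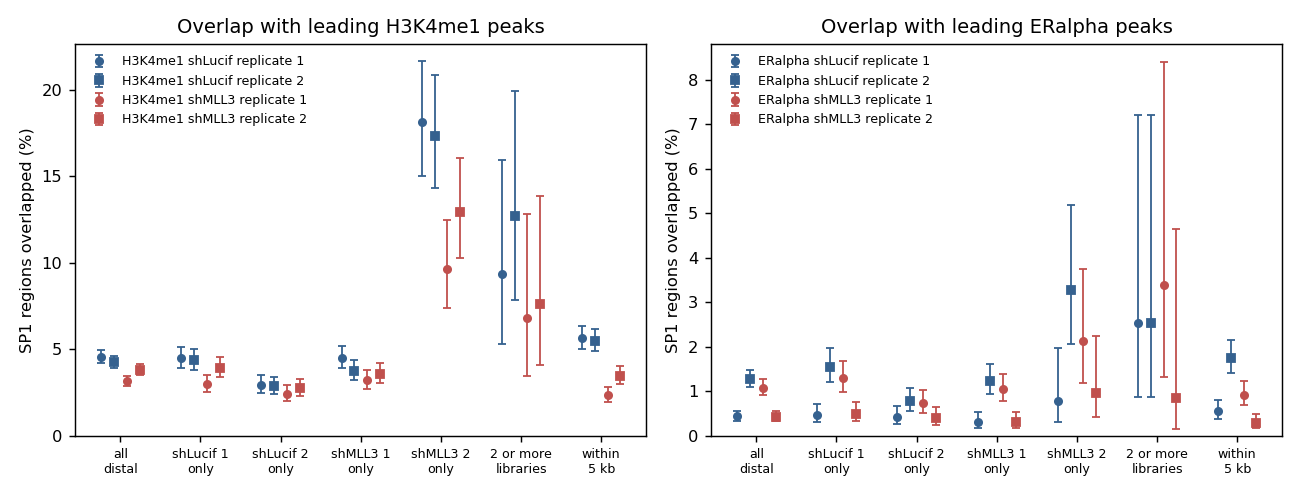
Percent of SP1 regions that overlap the 50000 strongest H3K4me1 peaks (left) and the 10000 strongest ERα peaks (right) of each library, with points for the 4 libraries of each mark and 95% Wilson intervals as error bars, for all distal regions, for groups of them by SP1 library, and for regions within 5 kb of a TSS. H3K4me1 overlap of all distal regions runs from 3.16% to 4.57%, and that of regions of shMLL3 replicate 2 alone from 9.63% to 18.1%.

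Named examples of marked regions were few among those that recurred. In an intron of PLEKHA6, chr1:204257430-204257929 overlapped H3K4me1 peaks of rank 827 and 269 in shLucif and 331 and 77 in shMLL3. Its SP1 peaks ranked 84 and 1040 in the shMLL3 replicates and 25347 and 22691 in the shLucif replicates, and its window had 3 CCAAT boxes. Also marked in all 4 H3K4me1 libraries were chr1:232395849-232396399, 202039 bp from SIPA1L2, and chr7:11631498-11631857, in an intron of THSD7A. Neither had a GC box or a CCAAT box. The region chr11:67113509-67114052 lay in an intron of RAD9A, 7204 bp from the TSS of POLD4, which encodes a subunit of DNA polymerase δ. It was marked in 3 libraries and ranked 2858, 3950 and 2017 in the 3 SP1 libraries that held it.

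ERα peaks overlapped still fewer distal SP1 regions. The shares were 0.432% (58 regions) and 1.28% (171) in the shLucif libraries and 1.08% (145) and 0.425% (57) in the shMLL3 libraries. Of the top 10000 ERα peaks, 10000 and 3797 in shLucif and 764 and 10000 in shMLL3 reached an FDR of 0.01. The higher shares thus belonged to the lists with fewer such peaks. The shares of the cell lines overlapped, and replicate 2 of shLucif lay beside replicate 1 of shMLL3. The difference of -0.101 percentage points was smaller than the spread, with means of 0.854% ± 0.596 and 0.753% ± 0.464 (SD, n = 2 each, two-sided exact permutation test, p = 0.667). It turned to 0.321 without shLucif replicate 2 and to 0.227 without shMLL3 replicate 2, with no test. The peaks compared covered 2.04, 4.64, 5.90 and 3.10 Mb, which is 0.0659% to 0.190% of the genome. Per Mb of list the ERα overlaps were 28.4 and 36.8 regions in shLucif and 24.6 and 18.4 in shMLL3. On that measure the cell lines did not overlap, and the difference was not tested. Promoter regions had shares of 0.554%, 1.74%, 0.923% and 0.287%, and distal minus promoter was -0.0729 percentage points (exact permutation test, p = 0.875), a direction that turned under 7 of 16 alternatives. In all, 396 regions (2.95%) overlapped a top ERα peak in at least 1 library, 76 of which also overlapped H3K4me1.

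Only 4 distal regions overlapped a top ERα peak in all 4 ERα libraries, and all 4 were present in SP1 shMLL3 replicate 2 alone. The region chr11:1817722-1818221 lay 31565 bp from the TSS of SYT8, its closest protein-coding gene. It lay 32169 bp from the TSS of CTSD, the lysosomal protease cathepsin D and a classical estrogen-induced gene. Its ERα peaks ranked 5, 8, 19 and 51. The ERα peaks at chr19:41427041-41427540, 38634 bp from CYP2A7, ranked 70, 2, 4 and 19. Those at chr1:188401643-188402142 ranked 1658, 14, 29 and 26. At chr1:235098768-235099474, 6 bp from the start of the non-coding gene LNCATV, they ranked 8, 3, 28 and 22, and H3K4me1 peaks ranked 85 in shLucif replicate 2 and 1897 in shMLL3 replicate 2. Their SP1 peaks ranked 3491, 3317, 3848 and 1551. None of the 4 windows had a GC box.

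Genes of the estrogen and SP1 programs were looked up in lists. Of 19821 protein-coding genes, 41.3% had a distal SP1 region within 100 kb of a TSS and 1.85% a recurrent one. Of 25 classical estrogen-induced genes 14 (56%) had a distal region, of 20 luminal factors and ERα cofactors 8 (40%), of 12 SP and KLF factors 8 (66.7%) and of 9 AP-1 factors 3 (33.3%). A recurrent region lay near 1 gene of these lists, ATF3, a stress-induced factor, at 58122 bp in both shLucif libraries. The closest distal region to SP1 itself lay at 8676 bp and that to SP3 at 7921 bp, both present in shMLL3 replicate 2 alone. Distal regions lay 5156 bp from GATA3, the luminal lineage factor, in shLucif replicate 1 alone, and 5149 bp from RET, a receptor tyrosine kinase, in shMLL3 replicate 2 alone. Those closest to PGR, the progesterone receptor, and TFF1, a secreted trefoil peptide, lay at 49166 and 15734 bp, in shMLL3 replicate 1 alone.

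RNA-seq gave the levels of the genes nearest to these regions, in the unit FPKM, which scales fragments by transcript length and library size. The targeted gene KMT2C was at 2.34 and 6.77 FPKM in shLucif and at 1.07 and 2.69 FPKM in shMLL3. The cell lines overlapped at this gene, which was lower in shMLL3 by mean with a log2 fold change of -1.02 ± 0.54 (SE, limma, adjusted p = 0.629). ESR1, which encodes ERα, was at 11.2 and 14.2 FPKM in shLucif and at 12.1 and 10.8 FPKM in shMLL3, and the luminal marker GATA3 was at 212, 140, 259 and 206.3 FPKM. SP1 was at 16.7 and 23.7 FPKM in shLucif and at 13.7 and 18.3 FPKM in shMLL3.

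Of the 4857 genes closest to a distal region, 2540 passed the filter of a mean log2(FPKM + 0.5) above 1. With limma, 0 of them were called at an adjusted p of 0.05, and 265 had an unadjusted p under 0.05. When 1 RNA library was left out, limma called 291 of them without shLucif replicate 2 and 2 without shLucif replicate 1. These fits take the spread from the shMLL3 libraries alone and assume that the lone shLucif library varies like them. Over all 11134 genes tested, 0% were called higher in shMLL3 and 0.00898% lower, and 889 had an unadjusted p under 0.05. The cell lines did not overlap for 302 of the 2540 genes with higher values in shMLL3 (11.9%) and for 881 with lower values (34.7%). The corresponding shares of all genes tested were 17.6% and 25.3%. The median log2 fold change was -0.20 for the closest genes and -0.10 for all genes.

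Genes closest to recurrent regions gave another balance. Of 72 tested, 21 were higher in shMLL3 without overlap (29.2%) and 12 lower (16.7%), against 17.6% and 25.3% of all genes tested. The median log2 fold change was -0.07. Of the 72, 57 were closest to regions that shMLL3 replicate 2 held, among them all 21 higher genes and 7 of the lower. APLP1, which encodes a homologue of the amyloid precursor protein, was at 22.5 and 24.9 FPKM in shLucif and at 65.96 and 74.1 FPKM in shMLL3, with a log2 fold change of 1.54 ± 0.27 (SE, limma, adjusted p = 0.317). SH3PXD2B, a scaffold protein of podosomes, was at 2.60 and 5.12 FPKM in shLucif and 7.85 and 9.13 FPKM in shMLL3 (log2 fold change 1.10, limma, adjusted p = 0.594). DNMT3A, closest to a region in all 4 libraries, was at 4.59 and 4.39 FPKM and at 6.77 and 8.66 FPKM (log2 fold change 0.71, limma, adjusted p = 0.605). EEF2K was at 11.6 and 9.38 FPKM and at 5.49 and 6.31 FPKM (log2 fold change -0.77, limma, adjusted p = 0.604). VAV3, an exchange factor for small GTPases closest to a region present in both shLucif libraries alone, was at 27.4 and 21.5 FPKM and at 9.43 and 9.72 FPKM (log2 fold change -1.30, limma, adjusted p = 0.418). None of these passed the adjusted threshold.

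The largest changes among the closest genes of all distal regions were likewise not called. CBLN2, a secreted synaptic organizer, was at 4.65 and 2.85 FPKM in shLucif and at 37.0 and 34.2 FPKM in shMLL3, with a log2 fold change of 3.12 ± 0.31 (SE, limma, adjusted p = 0.148). Next were SYT13, IGFBP3, SYNPO and TMTC1, with log2 fold changes of 2.66, 2.36, 2.23 and 2.18. In the other direction, NIBAN1, EMP1, PRLR, CITED2 and FAM241A had log2 fold changes of -2.18, -2.12, -2.04, -1.95 and -1.91. PRLR, the prolactin receptor, was at 17.1 and 21.4 FPKM in shLucif and at 2.92 and 6.13 FPKM in shMLL3. Closeness assigns a region to a gene by position alone.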

How the data were processed

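SP1, H3K4me1 and ERα were measured by ChIP-seq and RNA by RNA-seq in ZR751 cells, in 12 peak lists and 4 columns of expression values with 2 replicates per cell line. Groups and replicates were taken from the sample labels. The authors trimmed the single reads with fastq-mcf, aligned them to hg19 with BWA 0.7.5a-r405, filtered them with Samtools and Picard 1.126, and called peaks with SPP in each library against an input of the same cell line. The SP1 libraries of shMLL3 cells carry names of another library series than their input. The name of the SP1 list of shMLL3 replicate 1 does not state the removal of duplicates, which the names of the other lists do. Each deposited peak carries the authors' signal, which has a scale of its own in each library and was used only to rank peaks, and the −log10 of the FDR that the authors' caller gave. The deposited FPKM values were made by the authors with TopHat 2.0.13, Cufflinks 2.2.1 and Cuffnorm 2.2.1 for 23500 RefSeq entries, of which 97.4% had a symbol in the RefSeq table used. Where entries shared a symbol, that of the highest mean was kept.

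The members and the gene lists were chosen with earlier results of these data known. Peaks were ranked by signal, in file order where tied. No blacklist of regions prone to false signal was applied here, whereas the paper applied one in its comparison of binding between cell lines. At rank 5000, 48, 486, 61 and 1 peaks of the 4 SP1 lists were tied. A region was present in a library when it held 1 of its top 5000 peaks, and overlapped a mark when it shared at least 1 bp with a top peak. Start sites of 19821 protein-coding genes and the annotation came from GENCODE on GRCh37, and sequence from the same build. Motifs were exact matches on both strands in the 200 bp at the midpoint of a region. Overlap shares were compared between libraries with two-sided exact permutation tests (scipy 1.17.1), and log2(FPKM + 0.5) was tested with limma 3.58.1 in R 4.3.3 with Benjamini-Hochberg adjustment at 0.05, with the libraries of both cell lines. With 2 libraries per cell line the permutation test cannot pass 0.05. Regions named were those present in all 4 libraries, and the 5 of lowest mean rank in both libraries of a cell line and neither of the other. Genes named were the closest to those regions, the 5 largest changes each way among closest genes without overlap between cell lines, and list genes with a distal region within 100 kb. KMT2C, ESR1, GATA3 and SP1 were named as checks. Other regions and genes, such as those at non-coding starts, those marked by H3K4me1 or ERα in several libraries, the strongest of 1 library, APLP1 and VAV3, were chosen after their values were seen. Interval operations were checked against bedtools 2.31.1. The limma step was tested on simulated data with 11134 genes, where it called 40 of 107 genes changed by 2 on the log2 scale, 59 of 93 changed by 3, and 3 of 10934 unchanged. Input libraries were not analysed here. Some regions and sequences are not reported here.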

Additional observations from a re-analysis of the deposited data

How the results depend on the processing

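The number of distal regions was 13411. It was 4970 with the top 2000 SP1 peaks of each library and 29152 with the top 10000, and between 9136 and 12892 when 1 SP1 library was left out. The 118 recurrent regions became 50 and 327 with those numbers of peaks and 63 with start sites of all annotated genes. They ranged from 57 to 86 when 1 SP1 library was left out: 72 without shLucif replicate 1, 65 without shMLL3 replicate 1 and 57 without shMLL3 replicate 2. These changes follow from the number of peaks, sites or libraries entered. The lower H3K4me1 overlap in shMLL3 kept its direction under all 17 alternatives. The difference in ERα overlap between cell lines (-0.101 percentage points) turned to 0.0402 with the top 2000 SP1 peaks, and ranged from -0.522 to 0.321 when 1 ERα library was left out, being 0.321 without shLucif replicate 2 and 0.227 without shMLL3 replicate 2. Those settings leave 1 library in a cell line and have no test.

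The difference between distal and promoter regions had no fixed direction. For H3K4me1 (-0.274 percentage points) it was 0.0738 with the top 2000 SP1 peaks, 1.43 with distal taken as over 1 kb, 0.630 with 200 bp around SP1 summits, 0.574 with the midpoint inside a peak and 0.0131 with the top 20000 H3K4me1 peaks. It was 5.41 for regions in at least 2 SP1 libraries and 10.8 for those of SP1 shMLL3 replicate 2, and ran from -0.641 to 0.0370 when 1 H3K4me1 library was left out. For ERα (-0.0729) it was 0.0531 with the top 10000 SP1 peaks, 0.00176 with distal over 1 kb, 0.0132 with the midpoint inside a peak, 0.124 with the top 20000 ERα peaks, 1.07 for regions in at least 2 SP1 libraries, 0.938 for those of SP1 shMLL3 replicate 2, and -0.150 to 0.0586 when 1 ERα library was left out. The cause was not tested.

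Of the genes closest to distal regions limma called 0. With the replicate number as a block it called 6, with a covariate taken from the leading principal component of the residuals 130, and from 0 to 291 when 1 RNA library was left out (291 without shLucif replicate 2 and 2 without shLucif replicate 1). The fits with 1 library left out assume that the lone library of a cell line varies like the other cell line. The covariate was taken from the residuals themselves, which lowers the residual spread by construction. The median log2 fold change of these genes (-0.20) was -0.079 with no filter on low values and -0.072 for regions in at least 2 SP1 libraries, and ran from -0.269 to -0.133 when 1 RNA library was left out. Same-numbered RNA libraries deviated together with a correlation of 0.0374 over genes, so they share only a number. With the replicate block the H3K4me1 difference was -0.928 (exact permutation, p = 0.5) and the ERα difference -0.101 (exact permutation, p = 1). The alternatives by number of SP1 libraries, by ties at rank 5000 and all those for recurrent regions were chosen after seeing the data. Keeping all tied peaks gave 13542 distal regions and 118 recurrent ones.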
